A study of Mus musculus with 12 samples.

Results

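Schwann cells are the glia of peripheral nerve, and a muscle contains them along its nerve branches and at its motor endings. A myelinating Schwann cell wraps its membrane around a stretch of axon and compacts the layers into myelin, a lipid-rich sheath that speeds conduction of the action potential. The transcription factor SOX10, acting with EGR2, maintains the genes of this sheath, and plantaris muscle as a whole is dominated by fast muscle fibres, so transcripts of these glia are a minor component of its RNA. The genes described here were named as a group of 6: the myelin proteins Mbp, Pmp22 and Prx, the axon-contact protein Mag, the calcium-binding Schwann cell marker S100b, and Sox10. They were found by gene symbol among the rows of the deposited table, and 5 of the 6 had a row, of 22180 genes in all. Prx, which encodes periaxin, a scaffold of the myelinating Schwann cell, is not analysed here.

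Expression was measured on 12 whole-transcript arrays of mouse plantaris, a calf muscle, with 3 arrays in each of 4 groups. The groups were REDD1 knockout mice given 1 bout of aerobic exercise, REDD1 knockout mice that stayed sedentary, wild type mice after the same exercise, and wild type mice that stayed sedentary. All mice were males aged 12 weeks that had been without food for 3 hours, and muscles were taken 1 hour after the exercise ended. The labels describe the knockout as a null without naming the allele, the strain background or the litters, so the spread between arrays is the only error that p-values here measure. Whether the 3 mice of a group came from separate litters is not given in the sources used here.

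Values are log2 expression levels as deposited, and a difference of 1 is a doubling. Across the 12 arrays the medians lay between 4.52 and 4.60, and Pearson's r between pairs of arrays over all rows lay between 0.967 and 0.985. Of the 22180 genes, 13747 lay above the table median of 4.56 on at least 3 arrays and were tested, and all 5 genes with a row were among them. Mag passed on exactly 3 arrays, each in a different group, S100b on 6, Sox10 on 11, and Mbp and Pmp22 on 12. The targeted gene, Ddit4, which encodes REDD1, an inhibitor of the growth-promoting kinase complex mTORC1, read 6.46, 5.72 and 6.77 in knockout exercised, 5.32, 5.44 and 5.08 in knockout sedentary, 9.05, 8.40 and 8.62 in wild type exercised and 6.13, 5.83 and 6.02 in wild type sedentary muscle. It was lower in knockout than in wild type muscle by a log2 difference of -1.54 (limma standard error, SE, 0.16, adjusted p = 0.000137, averaged over both conditions), and each knockout group lay below its wild type counterpart without overlap. Where its probes lie relative to the deleted sequence is not given in the sources used here.

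The tissue markers matched the label. Acta1, Myh4, Ckm and Atp2a1, which encode contractile, energy-buffering and calcium-pumping proteins of fast fibres, averaged 13.6, 13.4, 13.2 and 13.1 over the 12 arrays, and the mean level of the 9 fast-fibre genes varied only between -0.07 and 0.06 around its own average. Cells other than Schwann cells can also express single members of the group. Mbp and Mag are shared with oligodendrocytes, the myelinating glia of the brain, and 5 of the 6 oligodendrocyte markers listed, Ermn, Mobp, Olig1, Olig2 and Opalin, never exceeded the table median. The remaining one, Mog, averaged 4.90 and was above it on 12 arrays. Sox10 is shared with melanocytes, of whose 6 listed markers Dct, Mlana, Tyr and Tyrp1 were above the median on 0 arrays, while Pmel, averaging 5.18, and Mitf, averaging 6.86, were above it on 12. The part of these cells in the values was not tested. S100b is shared with fat cells, of whose 9 listed markers 8 had a row. Lep, averaging 3.99, never exceeded the table median. The highest of the others, Fabp4, Retn, Cidec and Pck1, averaged 10.5, 8.32, 6.90 and 6.74, each above the median on 12 arrays.

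The promoters of 3 genes are printed, those for which the promoter set used here held a window. Each line gives the 250 bases before the annotated start, 5′ to 3′ on the gene's strand, from the RefSeq annotation of assembly GRCm38.p6. Capitals mark a match to 1 of 4 short motifs searched on both strands: ACAAAG and ACAATG, as SOX factors bind, GTGGGCG, as EGR factors bind, and GGAATG, as TEAD factors bind.
Pmp22, chr11:63128732-63128981, plus strand: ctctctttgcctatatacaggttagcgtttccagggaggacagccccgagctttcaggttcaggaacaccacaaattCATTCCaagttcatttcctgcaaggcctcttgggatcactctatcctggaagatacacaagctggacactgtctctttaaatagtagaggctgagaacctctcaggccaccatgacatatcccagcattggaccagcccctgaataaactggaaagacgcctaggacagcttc
Mag, chr7:30914864-30915113, minus strand: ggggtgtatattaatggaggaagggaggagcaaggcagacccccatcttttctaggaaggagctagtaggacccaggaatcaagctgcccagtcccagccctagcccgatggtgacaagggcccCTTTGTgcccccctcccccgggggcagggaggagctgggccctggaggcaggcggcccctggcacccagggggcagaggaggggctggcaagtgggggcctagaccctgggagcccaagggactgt
S100b, chr10:76253586-76253835, plus strand: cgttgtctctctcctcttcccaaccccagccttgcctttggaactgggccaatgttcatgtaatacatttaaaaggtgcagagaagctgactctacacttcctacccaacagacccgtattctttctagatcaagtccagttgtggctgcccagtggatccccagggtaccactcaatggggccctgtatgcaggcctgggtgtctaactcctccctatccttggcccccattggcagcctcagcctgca

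The Pmp22 window held GGAATG once, read as CATTCC on the gene's strand, with the match beginning 173 bases before the start. The Mag window held ACAAAG once, read as CTTTGT, beginning 126 bases before the start. The S100b window held none of the 4 motifs. In windows of 300 bases, 250 before and 50 after the start, ACAAAG occurred in 18.7%, ACAATG in 12.6%, GTGGGCG in 7.97% and GGAATG in 14.7% of 32851 annotated promoters, so a single match is common among promoters in general. In all, 3 of the genes had 8 annotated windows between them. The other Mag windows held ACAAAG once and GGAATG once, the first of these being the same site in an overlapping window, and the other 3 Pmp22 windows held none. No 2 matches overlapped.

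Pmp22, a membrane-spanning protein of compact peripheral myelin whose extra gene copy causes an inherited human neuropathy, varied more from mouse to mouse than between groups. It read 7.87, 9.56 and 9.18 in knockout exercised, 8.14, 8.43 and 9.71 in knockout sedentary, 9.70, 7.89 and 8.77 in wild type exercised and 8.33, 8.17 and 7.81 in wild type sedentary muscle. Each of the first 3 groups therefore held both a low and a high mouse, while the wild type sedentary mice were all in the lower part of the range. The lowest and highest arrays, wild type sedentary replicate 3 and knockout sedentary replicate 3, differed 3.73-fold. Its mean was 8.87 ± 0.89 in knockout exercised, 8.76 ± 0.83 in knockout sedentary, 8.79 ± 0.91 in wild type exercised and 8.10 ± 0.27 in wild type sedentary muscle (SD, n = 3 each). Ordered by mean, neighbouring groups overlapped throughout, for this gene as for the other 4.

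Mbp, whose product binds the inner faces of the myelin membrane and holds the layers together, had the same pattern. Its levels were 5.45, 6.63 and 6.43 in knockout exercised, 5.46, 6.0 and 7.06 in knockout sedentary, 6.98, 5.37 and 6.26 in wild type exercised and 5.74, 5.55 and 5.33 in wild type sedentary muscle. Knockout sedentary replicate 3 and wild type exercised replicate 1 were again the highest, and wild type sedentary replicate 3 again the lowest, 3.32-fold below the top. Means were 6.17 ± 0.63 in knockout exercised, 6.17 ± 0.81 in knockout sedentary, 6.21 ± 0.81 in wild type exercised and 5.54 ± 0.21 in wild type sedentary muscle (SD, n = 3 each).

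Mag, a lectin of the Schwann cell membrane that faces the axon, lay close to the table median. It read 4.09, 4.89 and 4.44 in knockout exercised, 4.25, 4.41 and 5.17 in knockout sedentary, 5.24, 4.43 and 4.32 in wild type exercised and 4.17, 4.33 and 4.18 in wild type sedentary muscle. The 3 arrays that carried it over the median, knockout exercised 2, knockout sedentary 3 and wild type exercised 1, stood clear of the other 9. Its span from lowest to highest array was 2.22-fold. It averaged 4.47 ± 0.40 in knockout exercised, 4.61 ± 0.50 in knockout sedentary, 4.66 ± 0.50 in wild type exercised and 4.23 ± 0.087 in wild type sedentary muscle (SD, n = 3 each).

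S100b, a calcium-binding protein used to stain Schwann cells, read 4.30, 5.52 and 4.98 in knockout exercised, 4.47, 4.53 and 5.16 in knockout sedentary, 5.46, 4.18 and 4.74 in wild type exercised and 4.62, 4.53 and 4.04 in wild type sedentary muscle. The same 3 arrays were the highest, here with knockout exercised replicate 2 first, and the span was 2.79-fold. It averaged 4.93 ± 0.61 in knockout exercised, 4.72 ± 0.38 in knockout sedentary, 4.79 ± 0.64 in wild type exercised and 4.4 ± 0.32 in wild type sedentary muscle (SD, n = 3 each).

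Sox10 behaved differently from the genes of the sheath. It read 4.80, 5.08 and 4.85 in knockout exercised, 4.60, 4.86 and 4.98 in knockout sedentary, 5.17, 4.54 and 4.59 in wild type exercised and 4.69, 4.67 and 5.04 in wild type sedentary muscle. Wild type sedentary replicate 3, the lowest array for Pmp22, Mbp and S100b, was the third highest for Sox10, and the whole span was 1.55-fold. Its mean was 4.91 ± 0.15 in knockout exercised, 4.81 ± 0.19 in knockout sedentary, 4.77 ± 0.35 in wild type exercised and 4.80 ± 0.21 in wild type sedentary muscle (SD, n = 3 each), so the group means lay within 0.14 of each other.

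**Figure D1:**
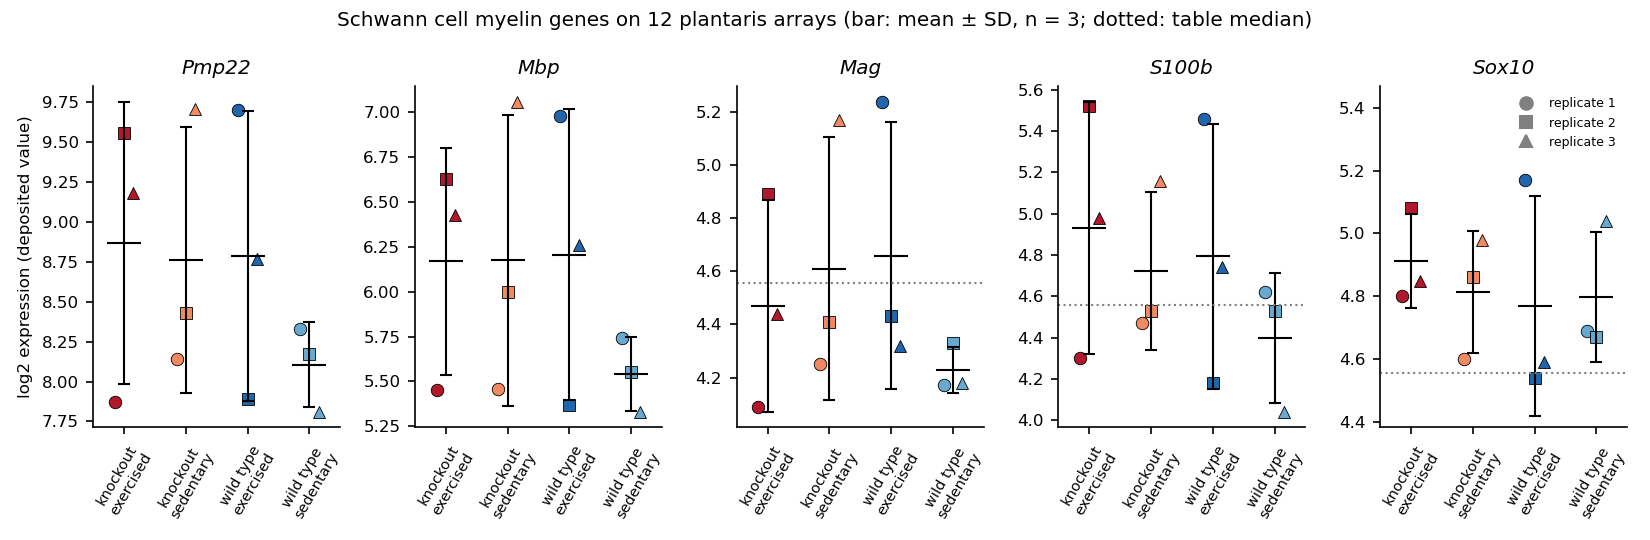
Deposited log2 expression (vertical axes) of the 5 Schwann cell genes on each of 12 arrays, in knockout exercised, knockout sedentary, wild type exercised and wild type sedentary muscle. Symbols are single arrays, bars the mean ± SD of 3, and the dotted line the table median of 4.56, drawn where it falls in the axis. For Pmp22, Mbp and Mag the wild type sedentary arrays sit together in the lower part of the range, while the other groups spread more widely.

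The ordering of arrays was therefore shared. Wild type exercised replicate 1 and knockout exercised replicate 2 were among the 3 highest arrays for 5 of the 5 genes, and knockout sedentary replicate 3 for 4 of the 5. Knockout exercised replicate 3 was among the 4 highest for 4 of the 5. The mean of the 5 genes, as a difference from each gene's own 12-array mean, was 0.78 on wild type exercised replicate 1, 0.68 on knockout sedentary replicate 3 and 0.60 on knockout exercised replicate 2, and -0.46 on wild type sedentary replicate 3. Those 3 high arrays belong to 3 different groups.

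Within groups, the standard deviation was 0.77 for Pmp22, 0.66 for Mbp, 0.51 for S100b, 0.41 for Mag and 0.24 for Sox10, against a median of 0.16 over all tested genes. The share of tested genes with a smaller within-group spread was 99.9% for Pmp22, 99.8% for Mbp, 99.3% for S100b, 98.2% for Mag and 82.5% for Sox10. The share of variance lying between groups was 19.2% for Pmp22, 20.9% for Mbp, 20.2% for Mag, 18.3% for S100b and 6.98% for Sox10. It was not adjusted for the number of groups, and each value lay below the 28.8% of the median gene. In bulk muscle RNA, fewer Schwann cells and less of these transcripts per Schwann cell cannot be told apart.

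Exercise was compared with rest within each genotype, asking whether the sheath genes had moved 1 hour after the bout. In knockout muscle they were centred near no change. The log2 difference, exercised minus sedentary, was 0.11 for Pmp22 (SE 0.47, 95% interval -0.89 to 1.10), -0.01 for Mbp (SE 0.41, interval -0.87 to 0.86), -0.14 for Mag, 0.21 for S100b and 0.10 for Sox10. None of the 5 passed limma's test at an adjusted p of 0.05, against 0.276% of all 13747 genes tested, and adjusted p-values lay between 0.911 and 0.999. The median of the 5 genes was 0.10, and that of all tested genes was -0.002. Single arrays set the sign. Without knockout exercised replicate 2 the difference was -0.24 for Pmp22 and -0.23 for Mbp, without knockout exercised replicate 1 it was 0.61 and 0.35, and without knockout sedentary replicate 3 it was 0.58 and 0.44 for the same genes.

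In wild type muscle the sheath genes averaged higher after exercise, but the 95% interval of each included 0. The log2 difference was 0.68 for Pmp22 (SE 0.47, interval -0.31 to 1.68), 0.66 for Mbp (SE 0.41, interval -0.20 to 1.53), 0.43 for Mag (SE 0.27), 0.40 for S100b (SE 0.32) and -0.03 for Sox10 (SE 0.18). Again 0 of 5 were called, against 0.567% of tested genes, with adjusted p of 0.754 for Mbp at the least. The median over the 5 was 0.43, against -0.019 over all tested genes. Single arrays moved these differences both ways. Without wild type exercised replicate 1 the difference was 0.22 for Pmp22, 0.28 for Mbp, 0.14 for Mag and 0.06 for S100b. Without wild type exercised replicate 2 it was 1.13 for Pmp22, 1.08 for Mbp, 0.55 for Mag and 0.70 for S100b. Wild type exercised replicate 1 also had the highest level of the 15 immediate-early genes, the transient transcription factors of the exercise response, at 1.03, against 0.38 and 0.05 on the other wild type exercised arrays, and the part of this in the result was not tested.

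The difference between these exercise effects, knockout minus wild type, was -0.57 for Pmp22 (SE 0.66), -0.67 for Mbp (SE 0.57), -0.57 for Mag (SE 0.38), -0.19 for S100b (SE 0.46) and 0.13 for Sox10 (SE 0.25). The adjusted p was 0.997 for each of them, and 0 of 5 were called, as was 0% of all genes in this comparison. The interval for Pmp22, -1.98 to 0.83, covers both the absence of a difference and a difference as large as the effects themselves. Wild type exercised replicate 1 and knockout sedentary replicate 3, both high for these genes, were also left out together, a choice made after seeing the data. The difference was then 0.36 for Pmp22, 0.16 for Mbp and 0.37 for S100b. Both arrays are in groups that this difference subtracts, so leaving them out raises it by construction. The high knockout exercised replicate 2, in a group that counts positively, was kept.

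Knockout was then set against wild type in each condition. In exercised muscle the log2 difference, knockout minus wild type, was 0.08 for Pmp22 (SE 0.47), -0.04 for Mbp (SE 0.41), -0.19 for Mag (SE 0.27), 0.14 for S100b (SE 0.32) and 0.14 for Sox10 (SE 0.18), with adjusted p between 0.985 and 0.999. Of the 5 genes 0 were called, against 0.175% of those tested. Without wild type exercised replicate 1 the difference was 0.54 for Pmp22 and 0.35 for Mbp, and without wild type exercised replicate 2 it was -0.37 and -0.46. Without knockout exercised replicate 2 it was -0.26 for Pmp22 and -0.27 for Mbp, and without knockout exercised replicate 1 it was 0.58 and 0.32.

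In sedentary muscle the sheath genes averaged higher in the knockout, again with 95% intervals that included 0. The difference was 0.66 for Pmp22 (SE 0.47, interval -0.34 to 1.65), 0.63 for Mbp (SE 0.41, interval -0.23 to 1.5), 0.38 for Mag (SE 0.27), 0.33 for S100b (SE 0.32) and 0.01 for Sox10 (SE 0.18). None of the 5 was called, against 0.138% of tested genes, and adjusted p ran from 0.755 to 0.988. Without knockout sedentary replicate 3 the difference was 0.18 for Pmp22, 0.19 for Mbp, 0.10 for Mag and 0.11 for S100b, and without knockout sedentary replicate 1 it was 0.97 for Pmp22, 0.99 for Mbp, 0.57 for Mag and 0.45 for S100b. On knockout sedentary replicate 3 the 11 fibroblast and matrix genes were also raised, at 0.88 against -0.27 to 0.14 on the other 11 arrays, and the macrophage genes stood at 0.37. Their part in the result was not tested. This comparison and that of exercise in wild type share the 3 wild type sedentary arrays. Their mean was the lowest of the 4 groups for Pmp22, Mbp, Mag and S100b, though S100b read 4.62 on replicate 1, above the table median.

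Averaged over genotypes, exercise differed from rest by 0.40 for Pmp22, 0.33 for Mbp, 0.15 for Mag, 0.30 for S100b and 0.04 for Sox10, with adjusted p between 0.700 and 0.961 and 0 of 5 called, against 1.6% of tested genes. Averaged over conditions, knockout differed from wild type by 0.37 for Pmp22, 0.30 for Mbp, 0.10 for Mag, 0.23 for S100b and 0.08 for Sox10, with adjusted p between 0.820 and 0.935 and 0 of 5 called, against 0.546% of tested genes. With 1 array left out, the averaged exercise difference ranged from 0.17 to 0.65 for Pmp22, 0.13 to 0.55 for Mbp and 0.13 to 0.46 for S100b, lowest without wild type exercised replicate 1. The averaged genotype difference ranged from 0.13 to 0.62 for Pmp22 and 0.077 to 0.49 for Mbp, lowest without knockout sedentary replicate 3, and from 0.080 to 0.40 for S100b. In each of the 7 comparisons, 0 of the 5 genes reached an unadjusted limma p under 0.05 either, against 4.51% to 11.2% of tested genes, and an analysis of variance without limma's moderation also called 0 of them. At these background shares, 0 of 5 does not set the genes apart from other genes.

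**Figure D2:**
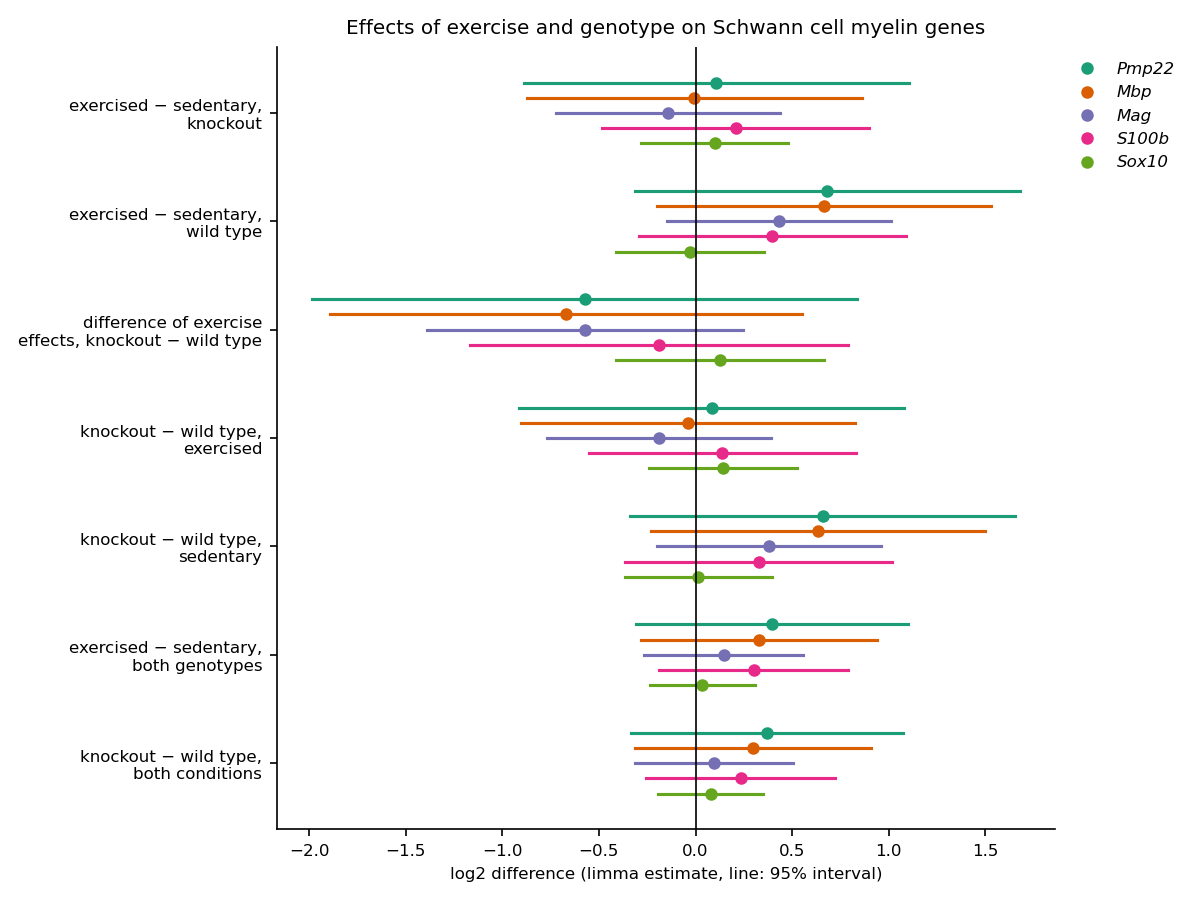
Log2 differences with their 95% intervals (horizontal axis, limma) for the 5 genes in each of the 7 comparisons, named on the vertical axis as the group on top minus the group below. Every interval crosses 0. Pmp22, Mbp, Mag and S100b lie to the right of 0 for exercise in wild type and for knockout in sedentary muscle, and to the left for the difference of exercise effects.

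Whatever the group, most of the genes varied together from array to array. Over the 12 arrays Pearson's r was 0.986 for Mbp with Pmp22 (Spearman's rho 0.993), 0.964 for Pmp22 with S100b (rho 0.953) and 0.923 for Mbp with S100b (rho 0.960). Permutation p-values, two-sided and adjusted by Benjamini-Hochberg over the 10 pairs, were 5e-05, 5e-05 and 6.67e-05 for r in these pairs, from raw values of which 1e-05 is the smallest that 100000 resamples can give. For rho they were 5e-05, 5e-05 and 0.000133. The genes were chosen with earlier results of these data known, so the permutation p-values here and below are a description and not independent support. Leaving out the 2 arrays farthest from the median left r at 0.976, 0.967 and 0.915. Over the 9 arrays other than knockout exercised 2, knockout sedentary 3 and wild type exercised 1, a choice made after seeing the data, r was 0.972, 0.946 and 0.891.

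Mag followed the same arrays with more scatter. Its r was 0.882 with Pmp22 (adjusted permutation p = 0.00038), 0.878 with Mbp (adjusted permutation p = 0.00038) and 0.832 with S100b (adjusted permutation p = 0.00208). The corresponding rho was 0.797, 0.748 and 0.697, with adjusted permutation p of 0.0067, 0.013 and 0.0233. Without the 2 farthest arrays r was 0.783, 0.716 and 0.789, but over the 9 arrays without the 3 highest it was 0.526, 0.502 and 0.406. Much of the relation of Mag to the other genes thus rests on 3 arrays, the same 3 that carried it over the table median.

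Sox10 followed the others weakly. Its r was 0.656 with Mag, 0.608 with Pmp22, 0.605 with Mbp and 0.579 with S100b, with adjusted permutation p of 0.0292, 0.0446, 0.0446 and 0.0514. Its rho was between 0.455 and 0.490, with adjusted permutation p between 0.14 and 0.141. Without the 2 farthest arrays r was 0.40, 0.377, 0.359 and 0.141, and over the 9 arrays without the 3 highest it was -0.22, -0.040, 0.019 and -0.20. The relation of Sox10 to the other genes therefore rests on those arrays. In all, 9 of the 10 pairs passed by r and 6 by rho.

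Subtracting the group means left these relations in place. With each group's mean subtracted, r was 0.986 for Mbp with Pmp22, 0.964 for Pmp22 with S100b and 0.925 for Mbp with S100b, and it ranged from 0.593 to 0.986 over the 10 pairs. No group held enough arrays for a correlation of its own.

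**Figure D3:**
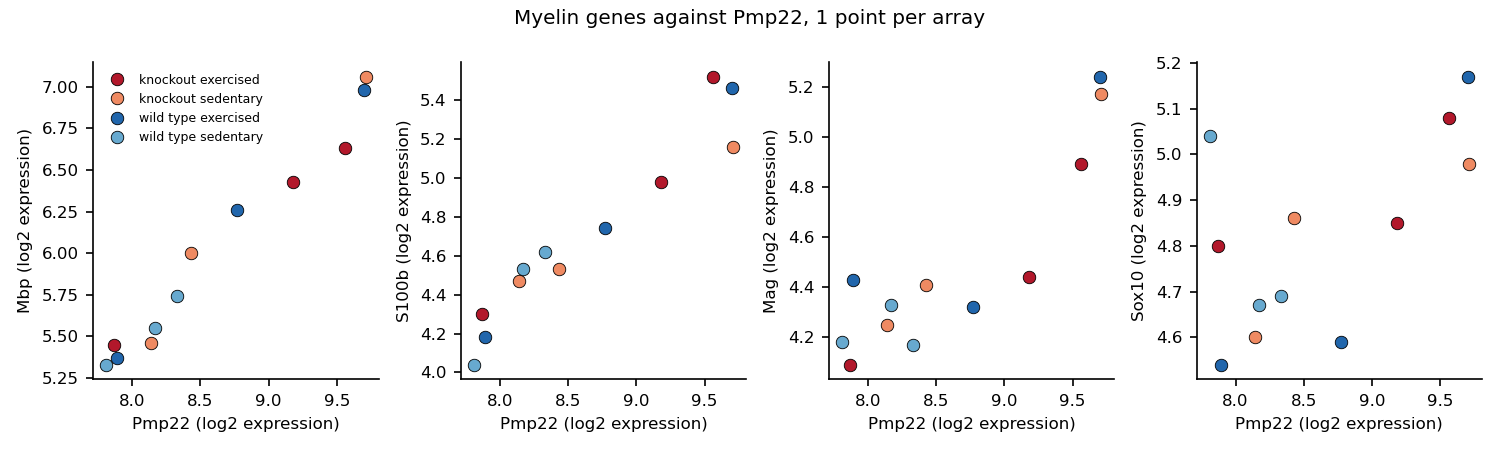
Log2 expression of Mbp, S100b, Mag and Sox10 (vertical axes) against that of Pmp22 (horizontal axes), 1 point per array, coloured by group. Mbp and S100b rise with Pmp22 along the whole range (r 0.986 and 0.964). Mag is set apart mainly on 3 arrays (r 0.882), and Sox10 scatters (r 0.608).

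Other genes of the sheath had the same profile. Over 13742 other tested genes, Pearson's r with the mean of the 5 genes had a median of -0.05 and exceeded 0.9 for 45 genes, or 0.327%. Of 27 tested genes on a list of 30 other Schwann cell and myelin genes, 12 exceeded 0.9 and the median was 0.876. These correlations are given as a description, with no test.

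The most alike genes were enzymes and membrane proteins of myelin. Fa2h, a fatty acid hydroxylase that makes hydroxylated myelin lipids, had r of 0.981, and Ugt8a, the transferase that makes galactosylceramide, the chief glycolipid of myelin, had 0.978. Mal, a proteolipid of myelin membrane, had 0.980, and Drp2, a dystrophin-related protein that periaxin binds, had 0.978. Ugt8a spanned 8.19-fold from wild type sedentary replicate 3, at 5.31, to wild type exercised replicate 1, at 8.34. Mal spanned 6.87-fold, Drp2 4.87-fold and Fa2h 4.52-fold, each more than the 3.73-fold of Pmp22.

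By array, Ugt8a read 5.44, 7.95 and 7.62 in knockout exercised, 5.78, 6.21 and 8.16 in knockout sedentary, 8.34, 5.84 and 6.75 in wild type exercised and 6.22, 5.55 and 5.31 in wild type sedentary muscle. The high arrays were the 3 that were high for Pmp22, followed by knockout exercised replicate 3, as for Pmp22. Its exercise difference in wild type was 1.28 (limma SE 0.69, adjusted p = 0.703), so even the widest-ranging of these genes was not called.

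The rest of the 15 most alike genes included junction and adhesion genes of the Schwann cell. Cldn19, a claudin that seals myelin layers, had r of 0.963, Gldn, a secreted protein that gathers sodium channels at nodes of Ranvier, had 0.958, and Cdh19, a cadherin of Schwann cells, had 0.951. Itgb4, the integrin of the Schwann cell's outer surface and of the perineurium, had 0.969. Ndrg1, mutated in a human demyelinating neuropathy, had 0.973. Cmtm5, a membrane protein of myelin, had 0.952, and Kif1a, a motor of axonal transport, had 0.952. Secisbp2l (0.969), Gas2l3 (0.967), Cfap100 (0.966) and Vat1l (0.963) completed the 15, of which 7 were on the list of other Schwann cell genes. Cfap100 averaged 3.96, below the table median.

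Further listed genes of the myelin sheath also tracked the 5. The r was 0.94 for Dusp15, a phosphatase, 0.92 for Cnp, a phosphodiesterase of myelin cytoplasm, 0.92 for Pllp, a myelin proteolipid, 0.92 for Ncmap, a protein of uncompacted myelin, and 0.92 for Plekhb1. It was 0.89 for Cadm4, which binds axonal partners, 0.88 for Dhh, the hedgehog ligand that Schwann cells send to the perineurium, and 0.87 for Egr2, the regulator that acts with SOX10.

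Other listed genes tracked them less. Ngfr, the neurotrophin receptor, had r of 0.19, Gfap, an intermediate filament, 0.23, Ncam1, an adhesion molecule, 0.25, and L1cam, another, 0.44. Scn7a, a sodium channel, had 0.72. Pou3f1, a factor of the stage before myelination, had the lowest value of the list at -0.47. For the remaining genes r was 0.42 for Pmp2, a lipid carrier, 0.46 for Gjb1 and 0.71 for Gjc3, gap-junction proteins, 0.66 for Erbb3, a neuregulin receptor, 0.70 for Gal3st1, which makes sulfatide, and 0.17 for Art3. Several of these genes are also expressed by muscle fibres and other cells. Sox2 of the list never exceeded the table median.

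**Figure D4:**
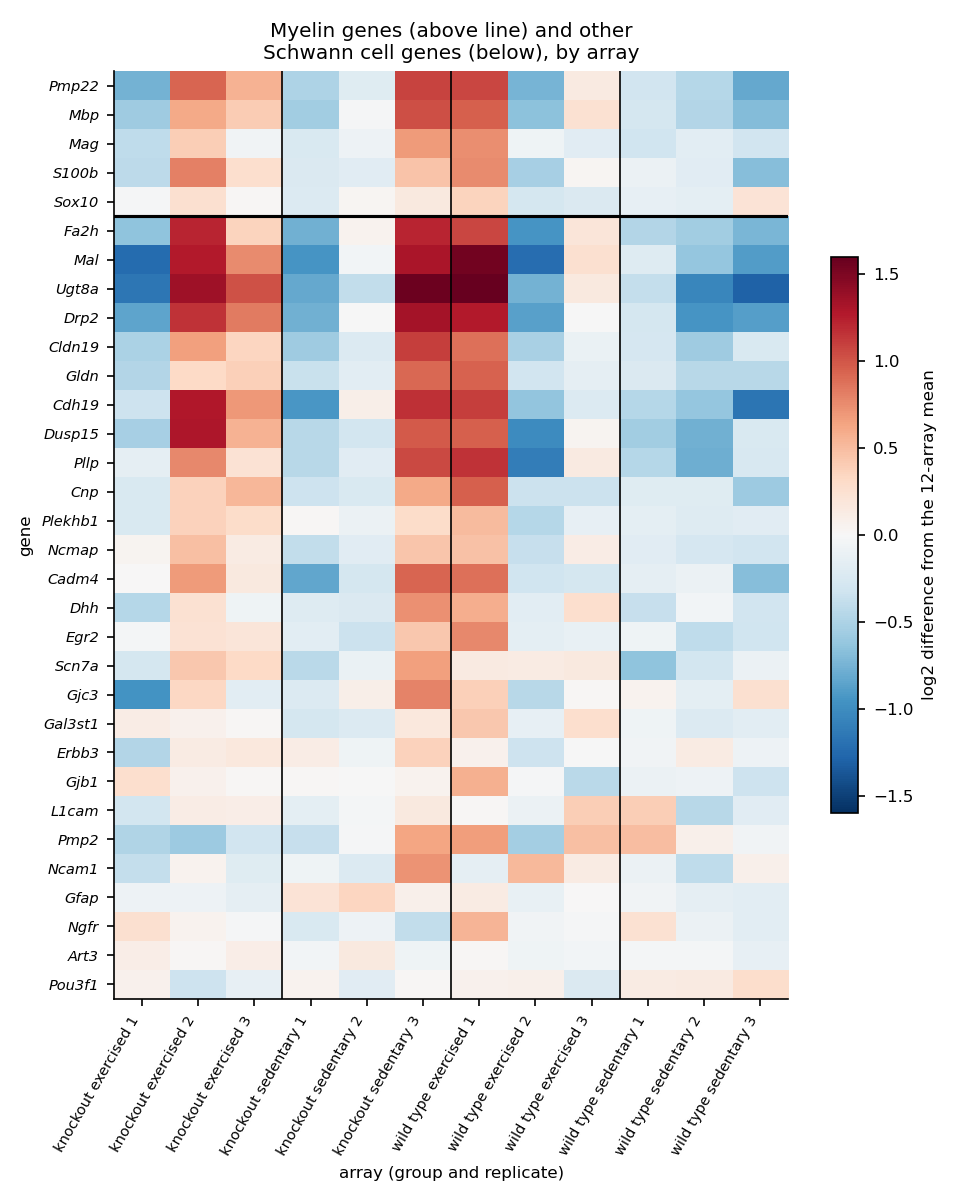
Log2 difference from each gene's 12-array mean (colour) for the 5 genes and, below the heavy line, 27 other Schwann cell genes in order of r with them, with 1 column per array. Knockout exercised 2, knockout sedentary 3 and wild type exercised 1 form red columns from Pmp22 down to Egr2, apart from the paler row of Sox10. The lowest rows, from Pmp2 to Pou3f1, share them in part or not at all.

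Limma called no gene of that list, out of 27 tested, in any of the 7 comparisons, against 0% to 1.6% of all tested genes. At these shares, 0 of 27 does not set the list apart from other genes. In wild type muscle 24 of the 27 were higher after exercise (median log2 difference 0.40), against 45.0% of all tested genes. In knockout muscle 18 were (median 0.12), against 49.4%. Between genotypes, 24 were higher in knockout than in wild type sedentary muscle (median 0.28), against 46.0% of all tested genes. In exercised muscle 16 were (median 0.04), against 49.3%. Many of the 27 vary together across arrays, so these counts do not add up separate observations. The difference of exercise effects was negative for 24 of the 27 (median -0.37), where 53.2% of all tested genes were positive. In that comparison 11 of 11 fibroblast and matrix genes (median -0.54), 7 of 7 adipocyte genes (median -0.48), 7 of 7 macrophage genes (median -0.23) and 6 of 6 tendon genes (median -0.24) were also negative, with 0 called, and their part in the result was not tested. At an unadjusted p under 0.05, between 0 and 1 gene of the 27 passed in each comparison, against 4.51% to 11.2% of all tested genes. Without wild type exercised replicate 1, 19 of the 27 were higher after exercise in wild type muscle and the median was 0.068. Without knockout sedentary replicate 3, 17 were higher in knockout than in wild type sedentary muscle and the median was 0.039. Both settings were chosen after seeing the data.

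The mean levels of lists for other structures of the nerve spanned less, but a list mean also shrinks where its genes move in different directions. The median SD of single genes over the 12 arrays was 0.38 for other Schwann cell genes and 0.31 for perineurium and endoneurium genes. It was 0.20 for the 4 tested axon genes. By array, the list of other Schwann cell genes averaged -0.33, 0.44 and 0.23 in knockout exercised, -0.35, -0.11 and 0.64 in knockout sedentary, 0.66, -0.38 and 0.02 in wild type exercised and -0.15, -0.34 and -0.34 in wild type sedentary muscle. Perineurium and endoneurium genes, from the sheath and packing tissue of the nerve, averaged -0.20, 0.22 and 0.02 in knockout exercised, -0.07, -0.08 and 0.22 in knockout sedentary, 0.22, -0.13 and 0.02 in wild type exercised and -0.03, -0.17 and -0.02 in wild type sedentary muscle. Their 3 highest arrays were the ones highest for myelin, over a smaller span, and 11 of the 12 listed were tested. The best detected were Slc2a1, a glucose transporter, Wif1, Cldn1 and Ntn4.

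Transcripts of axons are made mostly in cell bodies outside the muscle, and 7 of 14 listed axonal genes, including the neurofilament genes Nefl and Nefm, never exceeded the table median. The 4 that were tested, Stmn2, Uchl1, Nefh and Chat, averaged between -0.08 and 0.11 on every array. Adipocyte genes, whose cells can also express S100b, were highest on knockout sedentary replicate 2, at 0.34, where the 5 genes stood at -0.09. On the 3 arrays highest for myelin they were 0.03 in knockout exercised replicate 2, 0.27 in knockout sedentary replicate 3 and 0.31 in wild type exercised replicate 1. Their part in the S100b values was not tested.

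Fibroblast and matrix genes such as Dcn, Col1a1, Col1a2 and Sparc stood at 0.88 on knockout sedentary replicate 3 but at -0.21 on knockout exercised replicate 2 and 0.04 on wild type exercised replicate 1. The 5 genes stood at 0.68, 0.60 and 0.78 on these arrays. Endothelial genes lay between -0.30 and -0.02 on the exercised and between 0.06 and 0.22 on the sedentary arrays. Limma called 2 of the 7 lower with exercise averaged over genotypes, against 1.6% of all tested genes called in either direction. Among the 2 was Kdr (log2 difference -0.80, limma adjusted p = 9.27e-05). Tendon genes lay between -0.19 and 0.23. Of 15 immediate-early genes, limma called 7 higher with exercise averaged over genotypes, against the same 1.6% of all tested genes. Nr4a1, Nr4a3 and Atf3 were among the 7, while Jun differed by 0.37 (limma adjusted p = 0.251). The list's array order was not that of the myelin genes: it stood at 0.42 on knockout exercised replicate 1, where the 5 genes stood at -0.43.

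**Figure D5:**
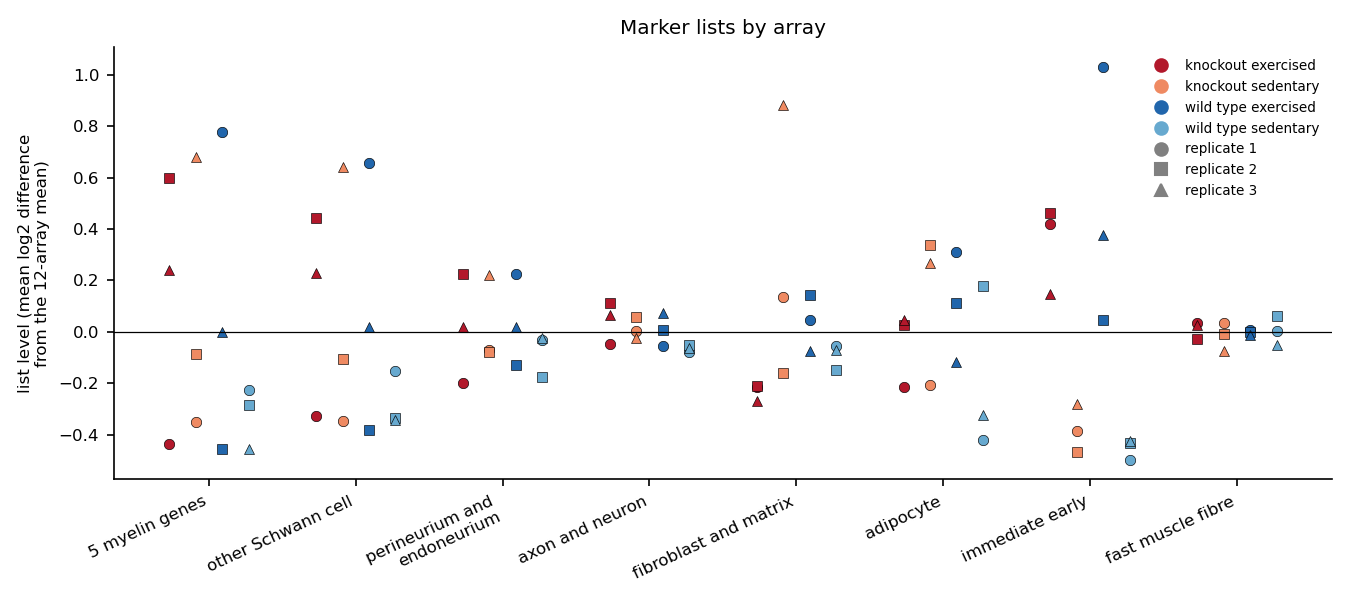
Mean level of each marker list on each array (vertical axis, log2 difference from the 12-array mean, averaged over the list's tested genes), with lists along the horizontal axis and groups by colour. The 5 genes span -0.46 to 0.78 and the other Schwann cell genes -0.38 to 0.66, with the same 3 arrays on top. The perineurium list spreads less, axon and fast-fibre lists hardly at all, and the immediate-early list separates exercised from sedentary arrays.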

How the data were processed

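Total RNA of plantaris was labelled with a whole-transcript kit and hybridised to Affymetrix arrays, per the labels' protocols. The authors deposited 1 table of log2 expression values, 41345 rows by 12 arrays, ranging from 0.36 to 13.9. Partek is the only software that the submitters' processing notes name, and the log base (read from the range), background correction and normalisation are not given in the sources used here.

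Rows were named by the platform annotation: 23521 rows had 1 symbol, 1814 several and 16010 none. Symbols were updated through the RefSeq gene table (GRCm38.p6), which held 23328 of the identifiers, and 0 changed. Each gene was taken at its row of highest mean, and each of the 5 genes described had 1 row. The 13747 genes above the table median on at least 3 arrays were fitted in R 4.3.3 with limma 3.58.1 (lmFit, eBayes with an intensity trend), with 1 mean per group over all 12 arrays. P-values were two-sided and adjusted by Benjamini-Hochberg within each of 7 contrasts over all genes tested, and called under 0.05. The scripts were tested on simulated data. The number of arrays limits the precision.

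The genes and marker lists were chosen with earlier results of these data known. Text names the 6 genes of the group, Ddit4, the 15 genes most correlated with their mean (1 predicted gene model was passed over), the 3 most correlated with each, the tested genes of the Schwann cell list and up to 4 genes of highest level from each other list. Listed genes that never exceeded the table median were named in addition, chosen after their values were seen. The level given for a list averages its tested genes, each taken relative to its own mean of 12 arrays. Replicate numbers follow the order of the samples and pair nothing. Alternatives covered the filter, scaling, variance prior, moderation, array weights, row choice and left-out arrays.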

Additional observations from a re-analysis of the deposited data

How the results depend on the processing

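Of the 5 Schwann cell genes, 0 were called in any of the 7 comparisons under any of 19 alternatives, with a smallest adjusted p of 0.387. Of 665 log2 differences recomputed, 616 kept their direction and 49 turned sign. Median centring gave 0.0091 for Mbp with exercise in knockout muscle. Array weights gave 0.16 for Mbp with exercise in knockout, 0.14 for S100b in the difference of exercise effects, 0.33 for Mbp and 0.046 for Mag between genotypes in exercised muscle, and -0.043 for Sox10 with exercise averaged. Leaving out both wild type exercised replicate 1 and knockout sedentary replicate 3 was a choice made after seeing the data, and knockout exercised replicate 2 was kept. With both left out, exercise in knockout gave 0.44 for Mbp and 0.14 for Mag. The difference of effects then gave 0.16 for Mbp, 0.36 for Pmp22 and 0.37 for S100b, genotype in exercised muscle 0.35 for Mbp and 0.10 for Mag, genotype in sedentary muscle -0.069 for Sox10, and exercise averaged -0.024 for Sox10. The cause was not tested.

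Leaving out 1 array at a time, exercise in knockout ranged from -0.35 to 0.14 for Mag, -0.36 to 0.44 for Mbp, -0.24 to 0.61 for Pmp22, -0.086 to 0.53 for S100b and -0.0078 to 0.18 for Sox10. Exercise in wild type ranged from -0.23 to 0.092 for Sox10, and exercise averaged from -0.066 to 0.095 for Sox10. Genotype in exercised muscle ranged from -0.40 to 0.10 for Mag, -0.46 to 0.35 for Mbp, -0.37 to 0.58 for Pmp22 and -0.17 to 0.47 for S100b. Genotype in sedentary muscle ranged from -0.069 to 0.13 for Sox10, genotype averaged from -0.044 to 0.24 for Mag, and the difference of effects from -0.50 to 0.14 for S100b.

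Counts of called genes over the whole table moved more. For exercise in knockout they were 38 as reported, 24 without the intensity trend, 0 without moderation, 83 with array weights and 16 to 71 with 1 array left out. For exercise in wild type they were 78, against 12 without moderation, 127 with array weights and 46 to 90. For genotype in exercised muscle they were 24, against 1 without moderation, 89 with array weights, 45 with both arrays left out and 5 to 40. For genotype in sedentary muscle they were 19, against 1 without moderation and 6 to 27. For exercise averaged they were 220, against 67 without moderation, 348 with array weights and 144 to 220. For genotype averaged they were 75, against 42 without the trend, 23 without moderation, 193 with array weights, 139 with both arrays left out and 38 to 149. Of the 10 pairs of genes, between 6 and 10 had an adjusted permutation p under 0.05 with 1 array left out, against 9 with all arrays. No paired analysis was possible because the replicate numbers follow sample order and mark no shared litter, batch or day. Mag, S100b and Sox10 lie near the table median, which limits how small a change their values can show.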

Other observations

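Taken gene by gene, the closest partners differed. Pmp22 was most alike to Ugt8a (r = 0.988), Mal (0.985) and Drp2 (0.983) over the 12 arrays, and Mbp to Mal (0.978), Drp2 (0.978) and Fa2h (0.976), all of them on the list of other Schwann cell and myelin genes. S100b was most alike to Cfap100 (0.949), Mal (0.949) and Sbspon (0.947). Mag, close to the table median, was most alike to Prrg3 (0.942), the neurotrophin receptor Ntrk3 (0.940) and the growth factor receptor Fgfr2 (0.938). Sox10 had no partner above 0.893, the highest being Caskin1 (0.893), Msln (0.887) and Pheta1 (0.885), and 0 of these 3 were on the list. These values share 12 arrays and carry no test.

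Of 25 listed regulators of Schwann cell development, 22 were tested. Limma called 0 of these in any of the 7 comparisons, against 0% to 1.6% of all tested genes, which does not set the list apart. The mean level of the 22 stayed between -0.07 and 0.10 on every array, but such a mean shrinks where genes move in different directions. Egr2, Erbb3, Pou3f1 and Sox2 are also on the list of other Schwann cell genes. With the mean of the 5 genes, r was 0.87 for Egr2, 0.66 for Erbb3 and -0.47 for Pou3f1. The median SD of single genes over the 12 arrays was 0.20 for the regulators, against 0.48 for the 5 genes. In bulk muscle RNA the cells that the regulators' values come from cannot be told. The 2 SDs therefore do not compare regulators with myelin genes within Schwann cells. Among the best detected, Jun, which is induced in injured Schwann cells and is also an immediate-early gene, differed by 0.26 with exercise in knockout (SE 0.18, limma adjusted p = 0.775) and by 0.48 in wild type muscle (SE 0.18, limma adjusted p = 0.462). Tead1, a partner of YAP and TAZ, differed by -0.13 and -0.31 in the same comparisons. Ep400 and Hdac2, which encode chromatin regulators, differed by 0.23 and 0.01 in knockout muscle and by 0.01 and -0.06 in wild type muscle. Limma's array weights, computed over all tested genes, were lowest for wild type exercised replicate 1, at 0.366.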
